A study of Mus musculus with 15 samples.

Results

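The 46 genes described here encode the enzymes of fatty acid, triglyceride and cholesterol synthesis and the proteins that control them through SREBP and ChREBP. They were listed by name and function, and all 46 were found among the 21755 protein-coding genes of the annotation on chromosomes 1 to 19 and X. The list holds 6 control genes, 7 genes of fatty acid synthesis, 8 of fatty acid desaturation and elongation, 7 of triglyceride synthesis and 18 of cholesterol synthesis. H3K4me3, histone H3 trimethylated at lysine 4, was mapped at these genes by PAT-ChIP-seq, a form of chromatin immunoprecipitation made for fixed tissue in paraffin, in livers of 15 female C57BL/6 mice (C57BL/6J in the study's methods) with 3 mice per diet and 1 library per mouse.

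The diets were a standard diet ad libitum (SD), caloric restriction (CR), a high-fat diet ad libitum (HF), a yellow corn-based diet ad libitum (YD) and a purple corn-based diet ad libitum (RD). The corn lines are near-isogenic, and the purple one carries anthocyanins that the yellow one lacks. Feeding began at 3 months and lasted 10 months by the study's design, whereas the labels state 12 months of age. The mice came from 6 litters, which the labels do not tie to single animals, and each library is a bulk liver in which fewer cells of a type and less of the mark per cell cannot be told apart.

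The liver makes fatty acids from acetyl-CoA, joins them to glycerol as triglyceride, and makes cholesterol from acetyl-CoA by way of mevalonate and squalene. SREBP-1c, from Srebf1, and ChREBP, from Mlxipl, are the factors best known for switching on fatty acid synthesis, and SREBP-2, from Srebf2, for cholesterol synthesis. H3K4me3 lies at the start sites of genes that are active or poised, so the mark is not a measure of mRNA.

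For each library the data are a list of islands, the enriched regions that SICER2 joined from windows of 200 bp, each with a score. A gene was taken as marked when an island lay within 1 kb of any of its annotated transcription start sites (TSSs). The lists held 7825 to 33752 islands from 5589269 to 15449854 reads, a number recovered from the score steps, and they marked 17.5% (YD_3) to 54.6% (HF_1) of all coding genes. The score has no scale shared by the libraries and was used only as a rank within a list. Liver identity was checked on markers. Islands lay at 7 to 10 of 10 hepatocyte markers in every library, and Apob, Ttr, Ass1, Cyp2e1, Hnf4a and Tat were marked in all 15, although the albumin gene Alb was marked in only 8. Of 24 markers of Kupffer, endothelial, stellate, biliary and lymphoid cells, 2 to 4 were marked in the SD and CR libraries, 3 to 13 in HF, 1 or 2 in RD and 0 in YD.

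Promoter sequences of 38 of the 46 genes were found in the RefSeq table of GRCm38.p6, the build of the islands (mm10). The sequences below are 150 bases that end just before a RefSeq TSS, 5′ to 3′ on the strand of the gene, and their capitals mark TCACNCCAC (a sterol regulatory element, N for any base), CACGTG (an E-box) and CCAAT (the NF-Y box), each on either strand, so that a CCAAT on the other strand reads ATTGG. Hmgcs1 and Mlxipl are shown because theirs were the only promoters of the 38 genes with TCACNCCAC. Fasn was marked in all 15 libraries.
Hmgcs1 (chr13:119690201-119690350, plus strand): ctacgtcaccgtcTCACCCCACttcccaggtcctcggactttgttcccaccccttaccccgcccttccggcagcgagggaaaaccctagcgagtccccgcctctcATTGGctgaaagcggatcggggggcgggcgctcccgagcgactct
Mlxipl, downstream promoter (chr5:135106741-135106890, plus strand): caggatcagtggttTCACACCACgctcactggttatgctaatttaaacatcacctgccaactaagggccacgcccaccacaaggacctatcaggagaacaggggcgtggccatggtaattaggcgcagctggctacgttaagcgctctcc
Fasn (chr11:120824548-120824697, minus strand): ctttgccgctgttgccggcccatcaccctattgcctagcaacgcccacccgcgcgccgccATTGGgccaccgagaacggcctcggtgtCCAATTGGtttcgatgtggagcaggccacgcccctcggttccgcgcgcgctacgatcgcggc
The next promoters belong to genes of cholesterol synthesis that were marked in all 3 SD mice and in no YD mouse.
Mvk (chr5:114444119-114444268, plus strand): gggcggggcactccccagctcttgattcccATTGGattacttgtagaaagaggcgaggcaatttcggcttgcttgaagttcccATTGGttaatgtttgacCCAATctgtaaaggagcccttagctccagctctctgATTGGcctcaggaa
Mvd (chr8:122443423-122443572, minus strand): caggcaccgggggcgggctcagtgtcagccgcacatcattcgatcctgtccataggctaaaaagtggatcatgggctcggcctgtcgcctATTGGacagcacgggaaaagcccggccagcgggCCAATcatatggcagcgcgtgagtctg
Lss (chr10:76531455-76531604, plus strand): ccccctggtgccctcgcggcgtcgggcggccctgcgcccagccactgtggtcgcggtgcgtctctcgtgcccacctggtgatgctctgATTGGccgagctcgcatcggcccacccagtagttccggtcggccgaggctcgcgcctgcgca
The last belong to Srebf1 and Insig2, whose start sites were marked in different numbers of mice.
Srebf1, upstream promoter (chr11:60220628-60220777, minus strand): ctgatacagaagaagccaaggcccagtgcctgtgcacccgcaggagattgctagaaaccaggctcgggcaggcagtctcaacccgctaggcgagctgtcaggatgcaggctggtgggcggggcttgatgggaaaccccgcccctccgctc
Srebf1, downstream promoter (chr11:60210472-60210621, minus strand): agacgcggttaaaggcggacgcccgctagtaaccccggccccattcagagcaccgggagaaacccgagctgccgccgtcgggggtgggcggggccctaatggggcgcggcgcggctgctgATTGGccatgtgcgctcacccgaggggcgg
Insig2, upstream promoter (chr1:121332590-121332739, minus strand): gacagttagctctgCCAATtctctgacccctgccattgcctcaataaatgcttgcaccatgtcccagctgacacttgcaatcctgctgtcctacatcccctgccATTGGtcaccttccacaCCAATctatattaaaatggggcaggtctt
Insig2, downstream promoter (chr1:121328025-121328174, minus strand): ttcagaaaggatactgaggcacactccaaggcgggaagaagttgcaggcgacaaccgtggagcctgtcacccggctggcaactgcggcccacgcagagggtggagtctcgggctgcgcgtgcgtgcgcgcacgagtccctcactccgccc
The sterol regulatory element started 137 bases before the TSS of Hmgcs1, as TCACCCCAC, and 136 before that of Mlxipl, as TCACACCAC.

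In the whole windows of the table, which start further upstream and end just past the TSS, TCACNCCAC was found at 2 of the 38 genes (5.26%) and at 1.42% of the 16433 coding genes in the table. CACGTG was found at 8 of the 38 (21.1%) against 9.22% of all. A CCAAT lay at 30 of the 38 (78.9%) against 42.2% of all, and GGGCGG, the Sp1 box, also at 30 (78.9%) against 51.3%. With the highest value among the promoters of a gene taken, lipid synthesis genes had a median GC content of 64.8%, against 58% for all coding genes. Their median CpG ratio, observed over expected, was 0.776 against 0.634. None of the 4 motifs contains another. The windows were not matched for base composition, and a match is a description of letters and not a bound site.

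Lipid synthesis genes were marked more widely than coding genes at large. Of the 46, 11 (23.9%) were marked in all 15 libraries, 34 in 1 to 14 and 1 in none, and the median gene was marked in 12 libraries. Of all coding genes, 9.46% were marked in all 15 and 40.0% in none, with a median of 3 libraries. The genes marked in every mouse were Srebf1, Insig1, Insig2, Fasn, Fads1, Gpam, Lpin1, Dgat2, Hmgcs1, Msmo1 and Sc5d, so that each of the 5 role groups has at least 1. The gene without any island was Pnpla3, a lipase-like protein of lipid droplets. Among 46 other genes of the same pathways, fixed as a list beside these, 7 (15.2%) were marked in all 15 libraries and 4 in none. Where an island was present, its median width over libraries was 2200 bp for the median lipid synthesis gene and 1800 bp for the median coding gene. These are descriptions of a list of known liver genes, for which no test was made.

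The number of lipid synthesis genes marked moved with the number of coding genes marked. Of the 46 genes, 42, 41 and 37 were marked in the SD mice, 45, 40 and 45 in the HF mice and 30, 42 and 44 under CR. In the corn groups 26, 28 and 16 were marked with YD and 38, 36 and 27 with RD. The means were 40 ± 2.65 for SD, 43.3 ± 2.89 for HF, 38.7 ± 7.57 for CR, 23.3 ± 6.43 for YD and 33.7 ± 5.86 for RD (standard deviation, n = 3 each). The YD mice lay below every mouse of SD, CR and HF, and overlapped the RD group through RD_3. As a share, 87.0% ± 5.75 of the lipid synthesis genes were marked in SD and 50.7% ± 14.0 in YD, while the share of all coding genes was 39.6% ± 5.98 in SD and 22.8% ± 4.69 in YD. Of 46 other pathway genes, 31.7 ± 3.21 were marked for SD, 38.7 ± 1.53 for HF, 33 ± 6.08 for CR, 18 ± 5.57 for YD and 23.7 ± 3.21 for RD. To set the lists on one footing, the 3811 coding genes with the highest scores were kept in each library, as many as the shortest list of marked genes (YD_3) holds. Of the 46 genes, 19, 19 and 24 were then among them for SD, 13, 20 and 33 for CR, 18, 16 and 20 for HF, 18, 21 and 16 for YD, and 23, 19 and 20 for RD. On this footing the YD mice overlapped every other diet, with a mean of 18.3 ± 2.52 genes against 20.7 ± 2.89 in SD.

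**Figure D1:**
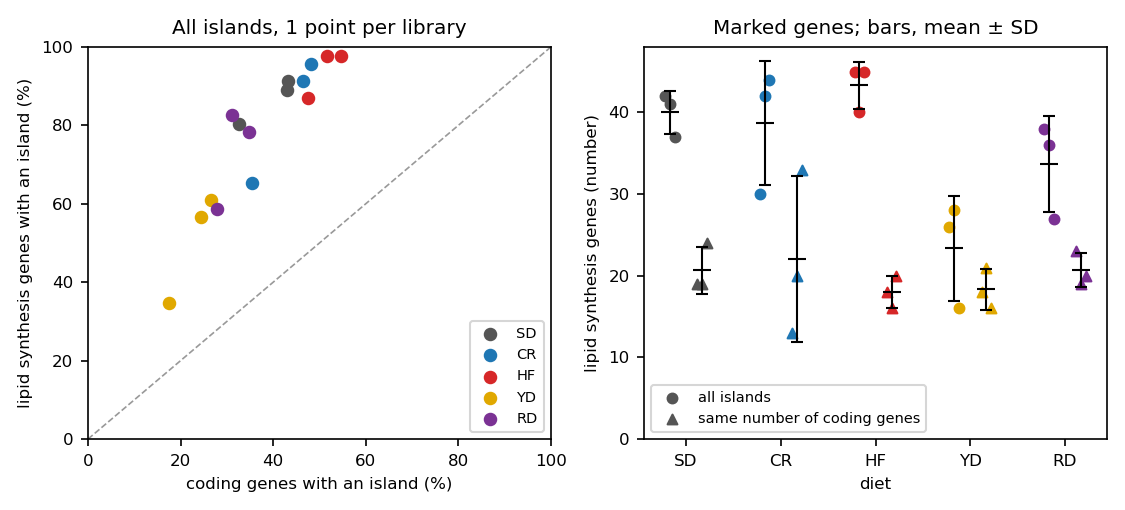
Left, percent of the 46 lipid synthesis genes with an island against percent of all coding genes with one, with 1 point per library coloured by diet and a dashed line of equality. Right, number of the 46 genes marked per library (circles) or among the 3811 top-scoring coding genes (triangles), with mean ± SD of 3 mice. All 15 points lie above the line on the left, and the YD circles, at 16 to 28, lie low on the right while the YD triangles, at 16 to 21, do not.

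Among the role groups, the cholesterol genes differed most between SD and YD when the full lists were used. The SD mice had 18, 18 and 15 of the 18 marked, against 10, 16 and 18 under CR, 18, 16 and 18 with HF, 8, 6 and 5 with YD, and 15, 14 and 10 with RD. On these full lists, which differ in length, the YD mice did not overlap any other diet. With the same number of top-scoring coding genes kept per library, the YD mice overlapped SD, CR and HF in cholesterol genes. There SD_2 held Hmgcs1, Cyp51, Msmo1 and Sc5d, and YD_2 held these with Fdps and Sqle. Every RD mouse still held more cholesterol genes than any YD mouse. Of the 24 markers of other liver cells 0 were marked in YD, and their part in the full-list count of cholesterol genes was not tested. Both counts were lowest in the YD libraries. Among libraries with all 18 cholesterol genes marked, the number of these markers ran from 2 in SD_2 to 13 in HF_1. All SD and YD libraries have the same form of name (ChIP, against PATChIP in CR_1, CR_2, HF_2, HF_3 and RD_1). The control genes had 5.67 ± 0.577 of 6 marked in SD, 6 in every HF mouse and 4 ± 1 in YD. Fatty acid synthesis had 5.33 ± 0.577 of 7 in SD and 4 ± 2 in YD, desaturation and elongation 6.33 ± 0.577 of 8 in SD and 4 ± 2 in YD, and triglyceride synthesis 5.67 ± 0.577 of 7 in SD and 5 ± 1 in YD. In these 3 groups the YD range overlapped that of SD, and SD_1 and YD_1 each had 5 control genes marked.

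**Figure D2:**
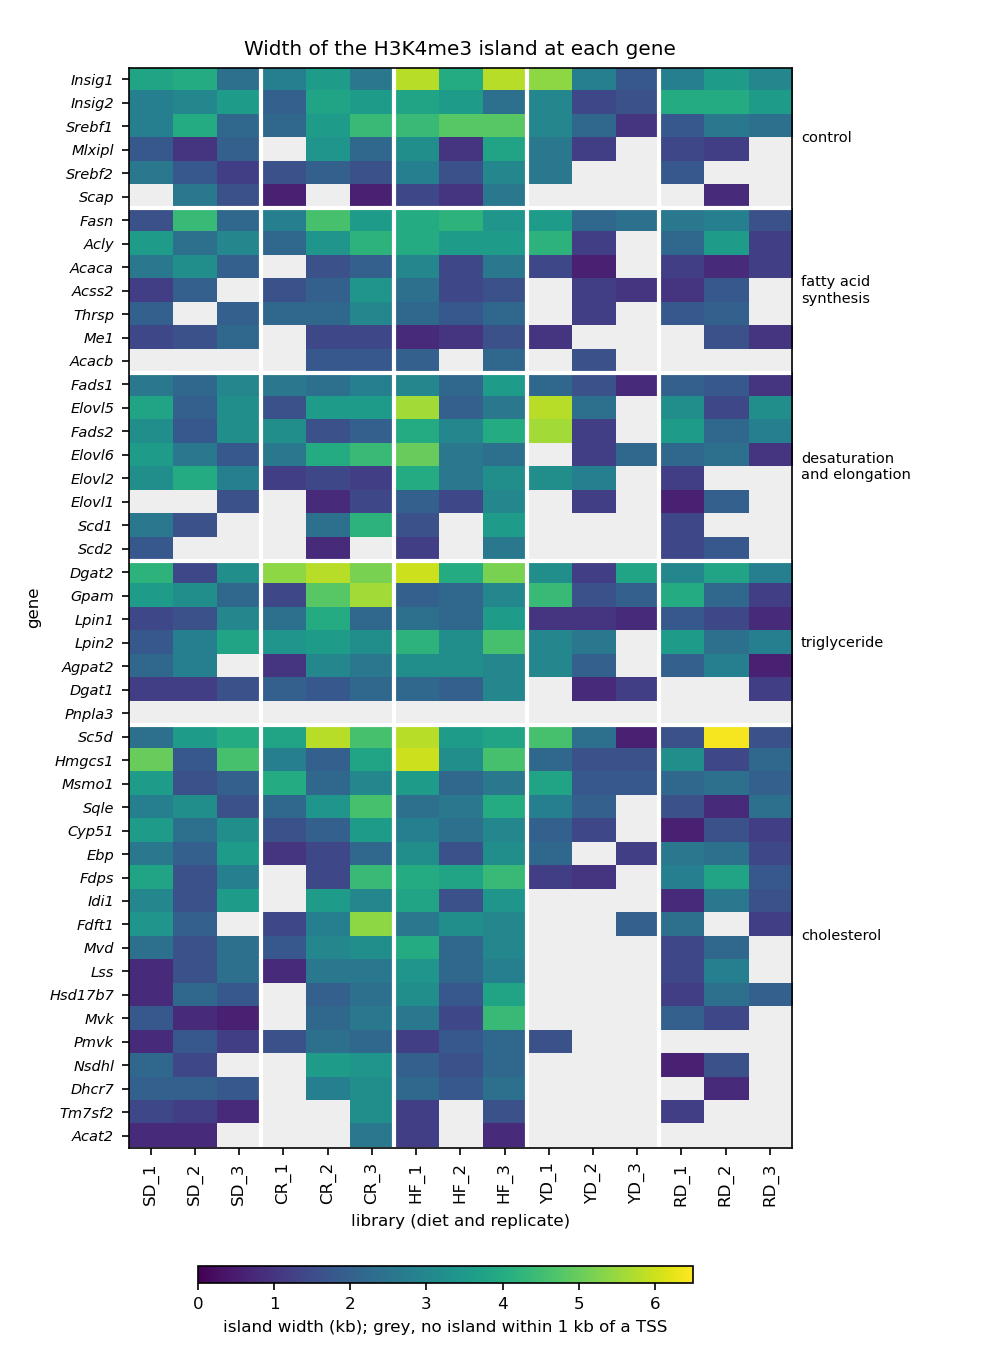
Width in kb of the widest island within 1 kb of a TSS for the 46 genes (vertical axis, by role) in the 15 libraries (horizontal axis, by diet). Grey cells are genes without an island. Most of the lower cholesterol genes are grey in all 3 YD columns, Pnpla3 is grey throughout, and Dgat2 and Sc5d have the widest median islands, 3800 bp.

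Genes were counted as lost against a reference diet when at least 2 of 3 reference mice and no mouse of the diet had an island, and as gained in the reverse case. A full split of 3 against 3 mice has an exact p of 0.1 by itself, so these are counts and not tests, and each is given with the share of all coding genes that met the same rule among those eligible for it. Between YD and SD, 11 of 42 eligible lipid synthesis genes (26.2%) were lost, near the 23.1% of all eligible coding genes. They were Scap, Scd1, Mvk, Mvd, Idi1, Lss, Tm7sf2, Nsdhl, Hsd17b7, Dhcr7 and Acat2. By role, 9 of 18 eligible cholesterol genes were lost, 1 of 6 control genes, 1 of 6 of desaturation and elongation, and 0 of 6 each of fatty acid and triglyceride synthesis. None of 26 eligible genes was gained in YD (0.162% of all). Among the other pathway genes 6 of 31 were lost. The genes counted as lost differed between settings. With the 3811 top coding genes of each library, Srebf2, Me1 and Idi1 were lost and no gene was gained, 3 of 20 eligible genes against 8.46% of all coding genes. Idi1 was thus the single gene lost both ways. Without SD_2, 7 of the 11 genes remained lost, and with an island required in all 3 SD mice the same 7 were left (Mvk, Mvd, Idi1, Lss, Tm7sf2, Hsd17b7 and Dhcr7). These were 7 of 35 eligible genes without SD_2 (14.3% of all coding genes) and 7 of 34 with all 3 SD mice required (12%).

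Between RD and SD, 2 of 42 eligible genes were lost, Pmvk and Acat2, against 9.55% of all coding genes, and 0 of 35 were gained against 0.707%. Without RD_1, the count of lost genes was 6, without RD_2 it was 4, and without SD_1 or SD_2 only Pmvk was left. Pmvk was then 1 of 35 eligible genes, against 4.76% of all coding genes without SD_1 and 4.88% without SD_2. The shares of all without RD_1 or RD_2 are not given here. Without SD_1 Scd2 was gained in RD, and without SD_3 Elovl1. Each was 1 of 35 eligible genes, against 2.14% and 0.957% of all coding genes. Between RD and YD, 7 of 35 eligible genes (20%) carried an island in at least 2 RD mice and in no YD mouse, against 12.2% of all coding genes, and none of 26 was lost (1.07% of all). They were Scd2 and the cholesterol genes Mvk, Mvd, Idi1, Lss, Nsdhl and Hsd17b7, which are 6 of 14 eligible cholesterol genes. Without RD_1 or without RD_2 the gained genes were Idi1 and Hsd17b7 alone. The shares of all coding genes for RD against YD in these settings are not given here, so the 2 genes cannot be read against them. In the 3811 top coding genes Idi1 was gained, 1 of 22 eligible genes against 8.62% of all, and Elovl2 and Dgat1 were lost, 2 of 18 against 7.96%.

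Between HF and SD, 1 of 45 eligible genes was gained, Acacb, against 9.12% of all coding genes, and 0 of 42 were lost (0.179% of all). Without HF_1 or HF_3 Acacb was no longer counted, and without SD_1 or SD_3 a second gene was gained, Scd2 or Elovl1. These were 2 of 45 eligible genes each time, against 14% of all coding genes without SD_1 and 10.1% without SD_3. CR against SD gave the same gene, 1 of 42 gained (3.94% of all) and 0 of 42 lost (0.818% of all). Without CR_3, Acacb was no longer counted as gained in CR and Tm7sf2 and Acat2 were lost. Those lost were 2 of 42 eligible genes, against 2.31% of all coding genes. Between HF and CR no lipid synthesis gene was gained, of 45 eligible, or lost, of 42 (5.83% and 0.425% of all). Without CR_3, Tm7sf2 and Acat2 were gained there, and without CR_2 Scd2 was. These were 2 of 45 eligible genes against 9.71% of all coding genes, and 1 of 45 against 8.49%. In HF 45 of the 46 genes were marked in at least 2 of 3 mice.

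The control genes split into widely and sparsely marked ones. SREBP-1 and SREBP-2 are made as membrane proteins of the endoplasmic reticulum, SCAP escorts them to the Golgi for cleavage when sterols are low, and INSIG1 and INSIG2 hold SCAP back when sterols are high. In the following, each width is that of the widest island within 1 kb of any TSS of the gene, and 0 bp stands for no island. Island widths differed between libraries as a whole, and these values are not corrected for that. Islands at Srebf1 were 2800, 4000 and 2200 bp (SD), 2200, 3600 and 4400 (CR), 4400, 4800 and 4800 (HF), 3000, 2200 and 1000 (YD) and 1800, 2600 and 2400 (RD). The HF mice had the widest ones, all at 4400 bp or more, a width that CR_3 also reached. YD and RD reached at most 3000 bp. Over all coding genes marked in every library the median width was 3333 bp in HF, 1867 bp in YD and 2067 bp in RD. After each library was centred on its median width, Srebf1 differed between HF and SD by 0.29 ± 0.31 (SE) on the log2 scale (limma adjusted p = 0.997). Over the 5 diets its limma adjusted p for width was 0.922. At Srebf2 they were 2600, 1800 and 1200 bp (SD), 1600, 2000 and 1600 (CR), 2800, 1600 and 3000 (HF), 2600, 0 and 0 (YD) and 1800, 0 and 0 (RD), so that 2 mice each of YD and RD had none. Scap had some of the narrowest islands, 0, 2600 and 1600 bp (SD), 600, 0 and 600 (CR), 1400, 1000 and 2600 (HF), 0, 0 and 0 (YD) and 0, 800 and 0 (RD), with a single RD mouse and no YD mouse marked.

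Insig1 and Insig2 were marked in all mice. For Insig1 the widths were 3800, 4000 and 2400 bp (SD), 2800, 3600 and 2600 (CR), 5800, 4000 and 5800 (HF), 5400, 2800 and 1800 (YD) and 2800, 3600 and 3000 (RD). Its YD values, from 1800 to 5400 bp, overlapped those of each other diet. Insig2 had islands of 2800, 3000 and 3600 bp (SD), 2000, 3800 and 3600 (CR), 3800, 3600 and 2400 (HF), 3000, 1400 and 1600 (YD) and 4000, 4000 and 3600 (RD). The 3 RD mice, at 3600 to 4000 bp, lay above the 3 YD mice, at 1400 to 3000 bp, without overlap. Mlxipl, the gene of the glucose-responsive ChREBP, was marked in 12 libraries, with 1800, 1000 and 2000 bp (SD), 0, 3400 and 2200 (CR), 3200, 1000 and 3800 (HF), 2600, 1200 and 0 (YD) and 1400, 1200 and 0 (RD).

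Srebf1 has a pair of known promoters, an upstream one for SREBP-1a and a downstream one for SREBP-1c, the main form of the liver. The upstream TSS at chr11:60220604 was marked in 9 libraries, 3 of 3 mice in SD and HF, 2 in CR, 0 in YD and 1 in RD. The downstream TSSs, 10.1 kb into the gene at chr11:60210392-60210465, were marked in 14 libraries, 3 of 3 mice in SD, CR, HF and RD and 2 in YD. All 3 RD mice and 2 of 3 YD mice therefore carried the mark downstream, while the upstream site was marked in 1 of these 6 mice. A further TSS at chr11:60222581, upstream of both, was marked in 5 libraries. Further into the gene, a TSS at chr11:60207188 was marked in 11 libraries, 2 SD, 3 CR, 3 HF, 2 YD and 1 RD. Another at chr11:60206112 was marked in 5, 2 CR and 3 HF. The downstream promoter printed above holds 1 NF-Y box and the upstream one none.

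The start sites of Insig2 were also marked in different numbers of mice. The upstream TSSs at chr1:121332550-121332589 were marked in 1 SD, 2 CR, 3 HF and 2 YD mice and in no RD mouse, and the downstream ones at chr1:121327678-121328024 in all 15. The upstream promoter of Insig2 holds 3 NF-Y boxes in the 150 bases shown and the downstream one none. At Mlxipl the main start at chr5:135106891-135106918, downstream, was marked in 12 libraries, and the upstream TSS at chr5:135089890 in 2, both CR. The Mlxipl sequence shown is that of the main start. At Gpam an additional TSS 27.8 kb into the gene was marked in 5 libraries, 2 CR and 3 HF mice. Of the 46 genes, 37 have start sites more than 1 kb apart, and in 19 of them a single one was marked in any library. These counts by start site were chosen for description after the values were seen.

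**Figure D3:**
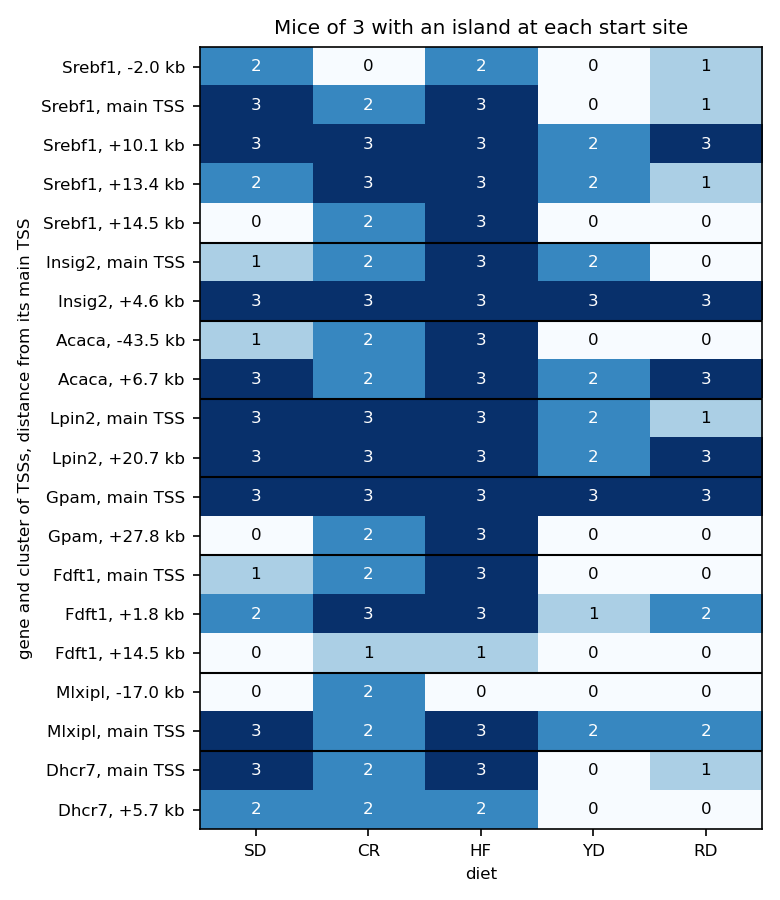
Number of mice of 3 (number and shade in each cell) with an island within 1 kb of each group of TSSs, by diet (horizontal axis), for 8 genes with start sites far apart (vertical axis, with the distance from the main TSS in kb). Groups without any island are left out. The Srebf1 site at +10.1 kb is marked in 2 or 3 mice of every diet and its main TSS in 0 YD mice and 1 RD mouse.

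Fatty acid synthesis starts with ATP citrate lyase (Acly) and acetyl-CoA synthetase (Acss2), which supply acetyl-CoA, acetyl-CoA carboxylase (Acaca and Acacb), which makes malonyl-CoA, and fatty acid synthase (Fasn). Fasn islands were 1600, 4400 and 2200 bp (SD), 2800, 4600 and 3600 (CR), 4000, 4200 and 3400 (HF), 3600, 2200 and 2400 (YD) and 2600, 2800 and 1600 (RD), and no diet stood apart. Acly was marked in 14 libraries with 3600, 2400 and 3000 bp (SD), 2200, 3400 and 4200 (CR), 4000, 3600 and 3600 (HF), 4200, 1200 and 0 (YD) and 2200, 3600 and 1200 (RD), with YD_3 the library without one. Acaca islands measured 2600, 3200 and 2000 bp (SD), 0, 1600 and 2000 (CR), 3000, 1400 and 2600 (HF), 1400, 600 and 0 (YD) and 1200, 800 and 1200 (RD). The YD and RD mice, at 1400 bp or less, lay below the SD mice, at 2000 bp or more.

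Acacb, the carboxylase of the mitochondrial surface that restrains fatty acid oxidation, was the sparsest of this group, with 0, 0 and 0 bp (SD), 0, 1800 and 1800 (CR), 2000, 0 and 2200 (HF), 0, 1600 and 0 (YD) and 0, 0 and 0 (RD). No SD or RD mouse was marked. Thrsp, the Spot 14 protein of lipogenic tissues, had 2000, 0 and 2000 bp (SD), 2200, 2200 and 3000 (CR), 2200, 1800 and 2200 (HF), 0, 1200 and 0 (YD) and 1800, 2000 and 0 (RD), in all CR and HF mice. Me1, the malic enzyme that yields NADPH, was marked in 11 libraries and Acss2 in 12. Acaca had its islands at the TSSs at chr11:84179831-84179858 in 13 libraries and none at its main annotated start, 6.7 kb upstream. Another group of Acaca TSSs, 43.5 kb upstream and 72 bp from the opposite gene Tada2a, was marked in 6 libraries, 1 SD, 2 CR and 3 HF mice, and the islands there cannot be given to one of the 2 genes. All 12 islands of Acss2 were likewise shared with the divergent gene Ggt7.

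Desaturation and elongation set the length and the double bonds of the fatty acids made. Scd1, the stearoyl-CoA desaturase of liver, was marked in 7 libraries with 2600, 1600 and 0 bp (SD), 0, 2400 and 4200 (CR), 1600, 0 and 3600 (HF), 0, 0 and 0 (YD) and 1400, 0 and 0 (RD). In SD, CR and HF 2 of 3 mice were marked, in RD 1 and in YD none. Scd2, its relative, was marked in 6 with 1800, 0 and 0 bp (SD), 0, 800 and 0 (CR), 1200, 0 and 2600 (HF), 0, 0 and 0 (YD) and 1400, 1800 and 0 (RD). Fads1 and Fads2, the desaturases of polyunsaturated fatty acids, were marked in 15 and 14 libraries, with median widths of 2200 and 3100 bp.

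Of the elongases, Elovl2, which acts on polyunsaturated chains, had islands of 3200, 4000 and 2800 bp (SD), 1200, 1400 and 1200 (CR), 4000, 2600 and 3200 (HF), 3200, 2800 and 0 (YD) and 1200, 0 and 0 (RD). The 3 CR mice, at 1200 or 1400 bp, lay below the 3 SD mice, at 2800 bp or more, and the 3 HF mice, at 2600 bp or more. Elovl5, of similar substrates, had 3800, 2000 and 3200 bp (SD), 1600, 3600 and 3600 (CR), 5600, 2000 and 2600 (HF), 5800, 2400 and 0 (YD) and 3200, 1400 and 3200 (RD). Its widest island, 5800 bp, was in a YD mouse, and another YD mouse had none. Elovl6, which extends palmitate, was marked in 14 libraries and Elovl1 in 9.

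Of the 7 genes of triglyceride synthesis, 3 were marked in all 15 libraries and 1, Pnpla3, in none. The pathway runs from the first acylation of glycerol-3-phosphate (Gpam) and the second (Agpat2) through the lipins (Lpin1 and Lpin2) to the last step by Dgat1 or Dgat2. Dgat2, with Sc5d the gene of the widest median island (3800 bp), had 4200, 1400 and 3200 bp (SD), 5400, 5800 and 5200 (CR), 6000, 4000 and 5200 (HF), 3200, 1200 and 3800 (YD) and 3000, 3800 and 2800 (RD). All 3 CR mice, at 5200 bp or more, lay above the SD, YD and RD mice. Lpin1 islands were 1400, 1600 and 3000 bp (SD), 2400, 4000 and 2200 (CR), 2400, 2200 and 3600 (HF), 1000, 1000 and 800 (YD) and 1800, 1400 and 800 (RD), and no YD island exceeded 1000 bp.

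Gpam was marked in all 15 libraries and Lpin2 in 14. Agpat2 had islands in 13. Dgat1 was marked in 12, with 1200, 1200 and 1600 bp (SD), 2000, 1800 and 2200 (CR), 2200, 2000 and 3000 (HF), 0, 800 and 1200 (YD) and 0, 0 and 1200 (RD), and in none of RD_1, RD_2 and YD_1. Lpin1 was marked in all libraries at chr12:16589720-16589773, 21.2 kb into the gene from its main annotated start, which carried no island. Lpin2 was marked at both of 2 starts 20.7 kb apart, in 12 libraries at the first and 14 at the second. Pnpla3 had no island at either of its TSSs in any of the 15 libraries.

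Cholesterol synthesis begins with HMG-CoA synthase (Hmgcs1) and runs through the mevalonate steps (Mvk, Pmvk, Mvd, Idi1) to the farnesyl and squalene steps (Fdps, Fdft1, Sqle). Hmgcs1 was marked throughout, with 5000, 1800 and 4600 bp (SD), 2800, 2000 and 3800 (CR), 6000, 3200 and 4600 (HF), 2200, 1600 and 1600 (YD) and 3200, 1400 and 2200 (RD). The YD widths, 1600 to 2200 bp, lay below those of HF, 3200 bp or more. Mvk, mevalonate kinase, had 1800, 800 and 600 bp (SD), 0, 2200 and 2600 (CR), 2600, 1400 and 4400 (HF), 0, 0 and 0 (YD) and 2000, 1400 and 0 (RD), with all 10 of its islands shared with the divergent gene Mmab. Pmvk, the next kinase, had 800, 1800 and 1200 bp (SD), 1600, 2400 and 2200 (CR), 1200, 1800 and 2200 (HF), 1600, 0 and 0 (YD) and 0, 0 and 0 (RD). It was the one gene of the 46 marked in all SD mice and in no RD mouse.

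Mvd, the decarboxylase that makes isopentenyl diphosphate, had 2400, 1600 and 2400 bp (SD), 1800, 3000 and 3200 (CR), 4000, 2200 and 3000 (HF), 0, 0 and 0 (YD) and 1400, 2200 and 0 (RD). Idi1, its isomerase, had 3000, 1600 and 3600 bp (SD), 0, 3600 and 3000 (CR), 3800, 1600 and 3400 (HF), 0, 0 and 0 (YD) and 800, 2600 and 1600 (RD). Every SD, HF and RD mouse and no YD mouse carried an Idi1 island. Fdps, the synthase of farnesyl diphosphate, had 3800, 1600 and 2800 bp (SD), 0, 1400 and 4400 (CR), 4000, 3800 and 4400 (HF), 1200, 1000 and 0 (YD) and 2800, 3800 and 1800 (RD). In YD its islands reached at most 1200 bp, against 1600 bp or more in SD and 1800 bp or more in RD, and all 13 were shared with the annotated coding gene Gm43738 on the same strand. Sqle, squalene epoxidase, had 2800, 3200 and 1600 bp (SD), 2200, 3400 and 4600 (CR), 2400, 2600 and 4000 (HF), 2800, 2000 and 0 (YD) and 1600, 800 and 2400 (RD).

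The steps after squalene are made by Lss, the cyclase that closes the sterol rings, and by the enzymes that trim lanosterol. For Lss the widths were 800, 1600 and 2400 bp (SD), 800, 2600 and 2600 (CR), 3400, 2200 and 2800 (HF), 0, 0 and 0 (YD) and 1400, 2800 and 0 (RD). Tm7sf2, a sterol reductase, had 1400, 1200 and 800 bp (SD), 0, 0 and 3200 (CR), 1200, 0 and 1600 (HF), 0, 0 and 0 (YD) and 1200, 0 and 0 (RD), with the 3 SD mice and at most 2 of any other diet marked. In 3 of its 7 libraries the island was shared with Vps51. Msmo1, the sterol methyl oxidase, was marked in all mice, with 3600, 1600 and 2000 bp (SD), 4000, 2200 and 3000 (CR), 3600, 2200 and 2600 (HF), 3800, 1800 and 1800 (YD) and 2200, 2400 and 2000 (RD). Its islands in YD, 1800 bp or more, were no narrower than the narrowest of SD, 1600 bp.

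Nsdhl, which acts after Msmo1, had 2200, 1400 and 0 bp (SD), 0, 3600 and 3400 (CR), 2000, 1600 and 2200 (HF), 0, 0 and 0 (YD) and 600, 1600 and 0 (RD), and its 9 islands were all shared with the divergent gene Cetn2. Hsd17b7, the ketosteroid reductase of the same step, had 800, 2200 and 1800 bp (SD), 0, 2000 and 2400 (CR), 3200, 1800 and 3800 (HF), 0, 0 and 0 (YD) and 1200, 2400 and 2000 (RD). As at Idi1, every SD, HF and RD mouse was marked and no YD mouse. Dhcr7, which makes cholesterol from 7-dehydrocholesterol, had 2000, 2000 and 1800 bp (SD), 0, 2800 and 3200 (CR), 2200, 1800 and 2400 (HF), 0, 0 and 0 (YD) and 0, 800 and 0 (RD). Its 9 islands were shared with Nadsyn1, and they lay mostly upstream of the Dhcr7 start. Acat2, the cytosolic thiolase that makes acetoacetyl-CoA, had 800, 800 and 0 bp (SD), 0, 0 and 2600 (CR), 1200, 0 and 800 (HF), 0, 0 and 0 (YD) and 0, 0 and 0 (RD) and the narrowest median island, 800 bp. Sc5d, the desaturase before Dhcr7, had 2400, 3600 and 4000 bp (SD), 3800, 5800 and 4600 (CR), 5800, 3600 and 3800 (HF), 4600, 2400 and 600 (YD) and 1600, 6400 and 1600 (RD), the widest single island of the 46 genes being the 6400 bp of RD_2. Cyp51 and Ebp were marked in 14 libraries each and Fdft1 in 11.

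The width of islands was compared on the 2059 coding genes marked in all 15 libraries, 11 of them lipid synthesis genes, after each library was centred on its median log2 width. Before centring, the median width of the 11 genes was 2933 ± 115 bp for SD, 3400 ± 529 bp for CR, 3733 ± 231 bp for HF, 2133 ± 924 bp for YD and 2400 ± 346 bp for RD (standard deviation, n = 3 each). That of all 2059 genes was 2533 ± 231, 2800 ± 400, 3333 ± 503, 1867 ± 643 and 2067 ± 462 bp, in the same order of diets. After centring, limma called 0 of the 11 genes over the 5 diets and in each of the 6 comparisons, with Benjamini-Hochberg adjustment over all 2059 genes and a threshold of 0.05. Of all genes it called 0% over the 5 diets, in HF, CR or YD against SD, in RD against YD and in HF against CR, and 0.0486% in RD against SD. At an unadjusted p under 0.05 stood 1 of the 11 over the 5 diets (153 of all genes), 1 between RD and SD (118) and 1 between RD and YD (185), Insig2 each time, and Dgat2 between CR and SD (85). None of the 11 did so between HF and SD (57), YD and SD (168) or HF and CR (64). Insig2 was wider in RD than in YD by 0.86 ± 0.30 (SE) on the log2 scale (limma adjusted p = 0.347). Lpin1 (limma adjusted p = 0.781 over the 5 diets), Insig1 (0.781) and Dgat2 (0.803) had the next smallest p. Dgat2 was wider in CR than in SD by 0.90 ± 0.39 (SE), with a limma adjusted p of 0.998.

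The score rank sets genes in order within the 3811 top coding genes of a library, from 100 for the highest score down, with 0 for genes outside. It was tested for 5956 coding genes found among the top genes in at least 3 libraries, and 30 of the 46 lipid synthesis genes entered. The other 16 were among the top genes in fewer than 3 libraries. limma called none of the 30 over the 5 diets or in any comparison. Of all genes it called 0.185% over the 5 diets, 0.0336% in HF against SD, 0.101% in CR against SD, 0.0168% in YD against SD, 0.0168% in RD against SD, 0.0336% in RD against YD and 0.101% in HF against CR. At an unadjusted p under 0.05 stood 3 of the 30 over the 5 diets, 417 of the 5956 genes in all, then 1 in HF (280 of all), 2 in CR (284), 4 in YD (417) and 1 in RD (321) against SD, 3 in RD against YD (396) and 3 in HF against CR (305). The median difference of the 30 genes was -8.93 in HF against SD, -7.36 in CR, 0.68 in YD and -4.18 in RD against SD, in rank points, and that of all genes tested was 0 to -0.02. These medians rested on single libraries. Without SD_3 it was 0 for HF, YD and RD and -1.81 for CR, without CR_1, CR_2 or CR_3 it was 3.98, -0.49 or -17.4 for CR, without SD_2 it was -5.46 for YD and -7.50 for RD, and without RD_2 or RD_3 it was 1.63 or -0.09 for RD. Without YD_1 or YD_3 it was -0.31 for YD, and without YD_2 it was -0.55.

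Srebf1 had the smallest p of the 30. Its score ranks were 83, 85.3 and 77.1 (SD), 11.8, 86.8 and 85 (CR), 65.7, 76.6 and 55.3 (HF), 2.18, 41.3 and 11.1 (YD) and 6, 0 and 39.3 (RD). All 3 SD mice lay above all YD and RD mice. The difference was -63.6 ± 21.2 (SE) rank points in YD against SD (limma adjusted p = 0.570) and -66.7 ± 21.2 in RD against SD (limma adjusted p = 0.699), and over the 5 diets the limma adjusted p was 0.611. The same SD mice serve in both comparisons. With scores ranked over the whole list instead, which then also reflects the length of the list, Srebf1, Srebf2 and Mvd passed over the 5 diets (Srebf1, limma adjusted p = 0.0273) among 1608 of 11200 genes. The score is taken from the highest island at any TSS of the gene.

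Msmo1 ranked lower in HF than in the other diets, with 77.7, 41.5 and 72.7 (SD), 68.5, 28.5 and 80.5 (CR), 0, 0 and 28 (HF), 59.7, 84.1 and 74 (YD) and 53.2, 43.9 and 70 (RD). The HF mice lay below all other mice, with CR_2 at 28.5 the nearest, and HF and SD differed by -54.6 ± 18.2 (SE) rank points (limma adjusted p = 0.790). Elovl2 had 0, 0 and 38 (SD), 0, 0 and 0 (CR), 0, 0 and 0 (HF), 77.3, 86.6 and 0 (YD) and 0, 0 and 0 (RD). Only 1 SD and 2 YD mice had it among the top genes, and RD and YD differed by -54.6 ± 17.6 (SE; limma adjusted p = 0.517). Without YD_3, in which Elovl2 had no island, limma called Elovl2 over the 5 diets (limma adjusted p = 0.0365) and in RD against YD. With all libraries the limma adjusted p over the 5 diets was 0.626. The share of all genes called without YD_3 is not given here, so the call cannot be read against it.

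Thrsp stood among the top genes in 2 CR mice, 1 SD and 1 RD mouse, with 0, 0 and 1.89 (SD), 0, 49.8 and 91.6 (CR), 0, 0 and 0 (HF), 0, 0 and 0 (YD) and 57.8, 0 and 0 (RD). Against SD, CR differed by 46.5 ± 18.6 (SE) rank points (limma adjusted p = 0.960). Elovl5 had 82.3, 56.7 and 91.4 (SD), 42.2, 9.68 and 33.2 (CR), 33.8, 49.9 and 16.4 (HF), 88.2, 91 and 0 (YD) and 90.6, 67.5 and 52.9 (RD), and CR against SD differed by -48.4 ± 22.4 (SE; limma adjusted p = 0.960), with no overlap between these mice. Dgat1 ranked among the top genes in 1 SD and 2 YD mice, with 0, 28.2 and 0 (SD), 0, 0 and 0 (CR), 0, 0 and 0 (HF), 0, 44.2 and 21.5 (YD) and 0, 0 and 0 (RD).

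**Figure D4:**
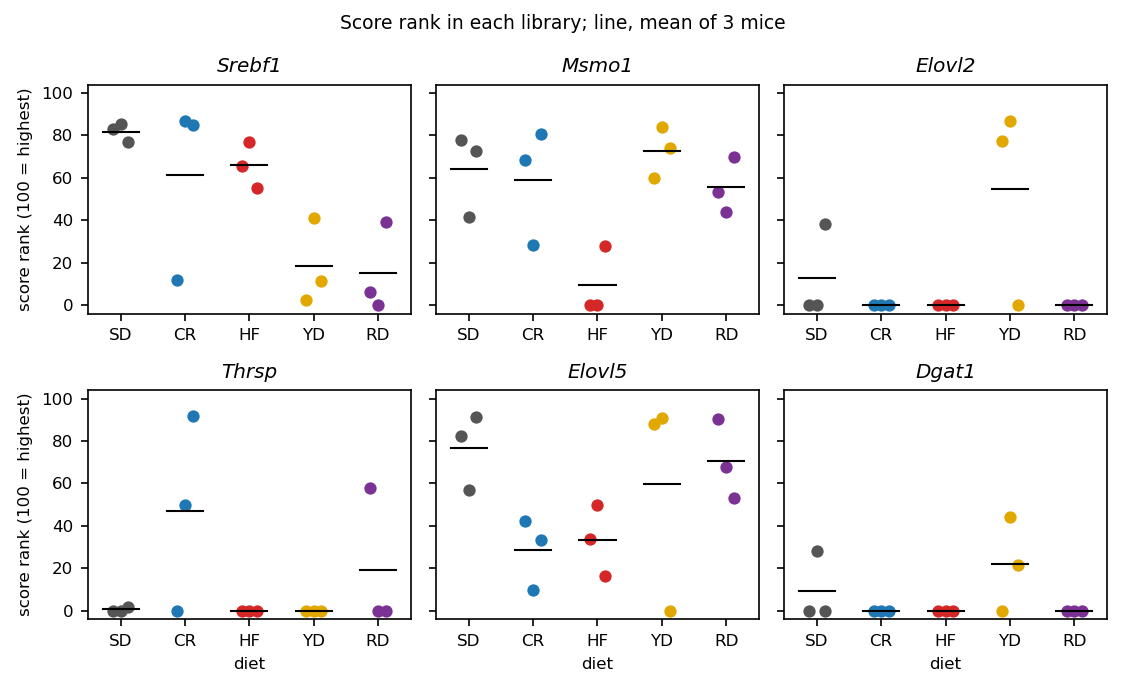
Score rank within the 3811 top coding genes (vertical axis, 100 the highest, 0 outside) by diet (horizontal axis) for the 6 genes with the smallest unadjusted p over the 5 diets. Points are mice and lines the means of 3 mice. Srebf1 lies at 77.1 to 85.3 in SD and at 0 to 41.3 in YD and RD.

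Insig1, Dgat2, Fasn and Hmgcs1, all marked in every library, overlapped in rank between SD and YD. Insig1 had ranks of 87, 75.8 and 59.9 (SD) and 78, 88.8 and 86.1 (YD), and Dgat2 of 86.3, 0 and 91.4 (SD) and 90.2, 46.2 and 97.2 (YD). Fasn had 0, 93.5 and 40.2 (SD) and 78.3, 56.8 and 63.5 (YD), and Hmgcs1 83.6, 50.7 and 95.1 (SD) and 39.2, 32.8 and 84.3 (YD). Among the 10 cholesterol genes tested, Fdps had the largest difference from YD to RD, from 0, 22.7 and 0 (YD) to 83.5, 62.8 and 50.2 (RD), a difference of 57.9 ± 27.1 rank points (SE; limma adjusted p = 0.732). Acly was lower in YD than in SD by -51.1 ± 24.1 (limma adjusted p = 0.708), at 54.5, 42.5 and 0 (YD) against 85.1, 85 and 80.2 (SD), and Fads2 by -56.6 ± 26.5 (limma adjusted p = 0.708).

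The islands of lipid synthesis genes lay mainly inside the gene. At the main TSS, the annotated principal start furthest upstream, 43 of the 46 genes had an island within 1 kb in at least 1 library, and its median edges ran from -247 to 1912 bp, counted from the TSS with positive values into the gene. For the 12320 coding genes with such an island, the edges were -441 and 1266 bp. In 40 of the 43 genes (93.0%) the island reached further downstream than upstream, against 81.0% of coding genes. The island covered the TSS itself in 59.9% of the 489 pairs of gene and library, against 75.6% for all genes, so that the lipid synthesis islands more often began past the annotated start. At Fasn they ran from 347 to 3146 bp, and at Dgat2 from -81 to 3918 bp. Hmgcs1 islands ran from -645 to 2154 bp, and covered the TSS in all 15 libraries. The exceptions were Dhcr7, from -1566 to 433 bp, Mvk, from -905 to 794 bp, and Acat2, from -653 to 346 bp. Dhcr7 and Mvk share their islands with a divergent neighbour 296 and 209 bp away.

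**Figure D5:**
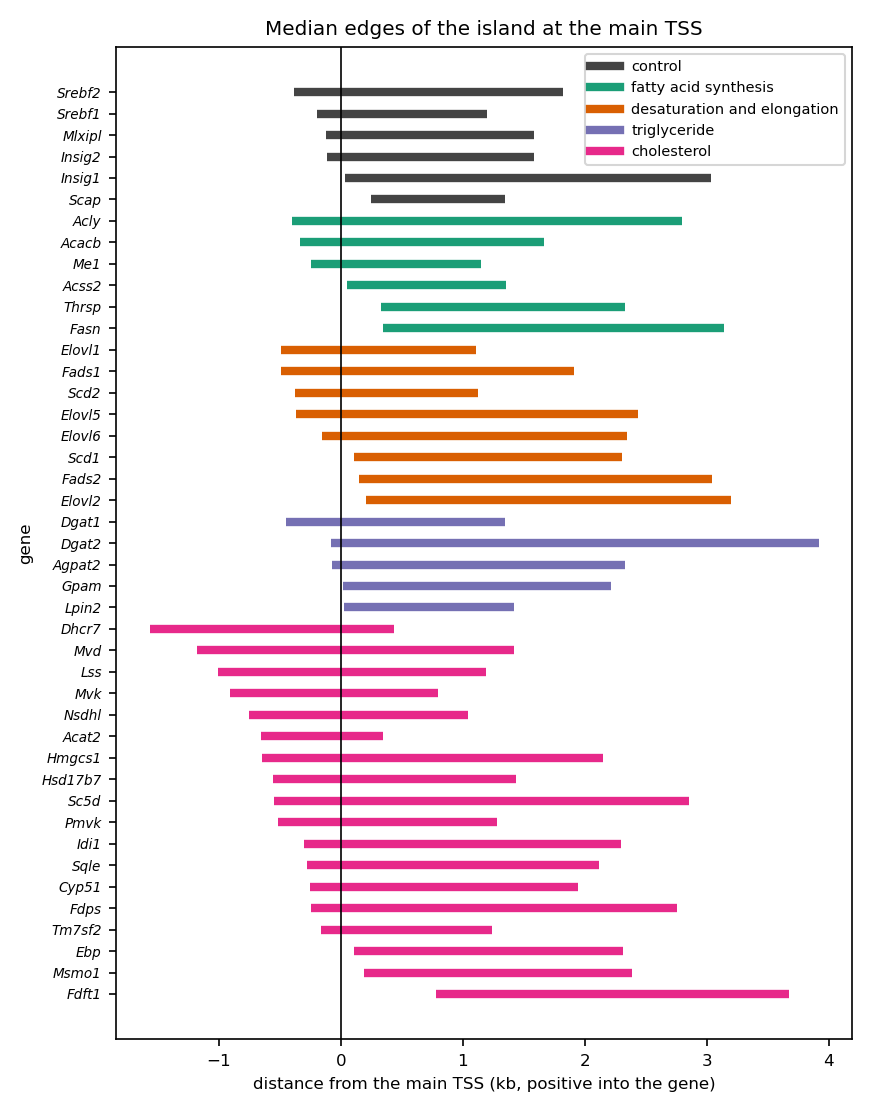
Median edges over libraries of the island at the main TSS of 43 genes (horizontal axis, distance in kb, positive into the gene), ordered and coloured by role. The vertical line is the TSS. Most bars reach further to its right than to its left, and that of Dhcr7, from -1566 to 433 bp, lies mostly to its left.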

How the data were processed

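PAT-ChIP-seq of H3K4me3 was made from 15 livers, 3 per diet. Per the paper's methods and the labels, the authors aligned 50 bp single reads to mm10 with BWA, removed duplicates and reads with a MAPQ under 1 with SAMtools, and called islands per library, with no pooling, by SICER2 (window of 200 bp, gap of 400 bp, FDR under 0.05); tool versions are not given in the sources used here. The deposited lists give chromosome, start, end and score; the deposited score adds, for the windows of an island, the negative natural log of each window's Poisson probability, and is not scaled between libraries. Diet and replicate number came from the labels.

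The 46 genes, the other pathway genes and the markers were chosen with earlier results of these data known. All 46 were accounted for, and values in every library are given for 15 genes of the control and main steps, the 6 with the smallest p of the score rank and the 4 of the width, those gained or lost, and the 3 widest and 3 narrowest, ties included. TSSs were those of GENCODE M21 (139486 transcripts, 53843 genes). The read number of a library was worked out from the score steps of single-window islands at an effective genome fraction of 0.74. Counting error per island is unknown, so errors are those between mice.

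Score rank and log2 width were fitted over all coding genes tested in all 15 libraries with limma 3.58.1 (trend, moderated F and t, two-sided) in R 4.3.3, with Benjamini-Hochberg adjustment and a threshold of 0.05, after tests on simulated data. With no log2 width where an island is missing, width was tested in genes marked in all 15 lists. Python 3.11.15 (pandas 2.3.3, numpy 2.4.6) served for tables and matplotlib 3.10.9 for plots. Alternatives were TSSs inside an island or within 3 kb, islands of at least 600 bp, the 7825 highest-scoring islands of each list, other filters and scales, the form of the library name, the replicate block and each library left out. The count among the 3811 top coding genes was added after the data were seen. Reads and expression were not used here.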

Additional observations from a re-analysis of the deposited data

How the results depend on the processing

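No lipid synthesis gene was called by limma in width under any of the 49 combinations of comparison and alternative setting or the 105 with a library left out. In score rank none was called in 54 of 56 combinations. The exceptions were both ranks over the whole list (within-list percentile), with 3 genes over the 5 diets and 1, Srebf1, in YD against SD. In that setting many other coding genes also passed over the 5 diets, with the count given above. With a library left out, the number called ranged from 0 to 1 over the 5 diets and in RD against YD, the 1 being Elovl2 without YD_3, and stayed at 0 in the other 5 comparisons. The replicate block and the form of the library name called 0 genes in every comparison. The replicate numbers did not pair the mice on average. Deviations of same-numbered mice from their diet means had a mean correlation of 0.0007 in rank (-0.113 to 0.233 over 30 pairs). In width the mean was 0.0024 (-0.14 to 0.131). Of 15 libraries, 5 in rank and 6 in width correlated best with their own number.

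Genes gained plus lost depended on the settings. With a TSS required inside the island the sum was 0 in HF and 4 in RD against SD and 2 in HF against CR. The 4 in RD were lost, of 38 eligible genes (12.1% of all coding genes). The 2 in HF against CR were gained, of 43 (7.65% of all). In HF against SD 0 of 43 were gained (11.4% of all) and 0 of 38 lost (0.354%). Taking the 7825 highest-scoring islands of every list, it was 3 in HF, 2 in CR, 7 in YD and 5 in RD against SD, 4 in RD against YD and 4 in HF against CR. Of 36 eligible genes against SD, those lost were 3 in HF (1.09% of all coding genes), 2 in CR (2.37%), 7 in YD (14.2%) and 5 in RD (14.2%). In RD against YD 2 of 23 were gained (6.14% of all) and 2 of 25 lost (7.04%). In HF against CR 2 of 34 were gained (4.8%) and 2 of 37 lost (2.52%). An island in all 3 mice against none gave 0 in HF, 0 in CR, 7 in YD (lost; 12% of all) and 1 in RD (lost; 3.61%) against SD and 2 in RD against YD (gained; 5.33%). The 3811 top coding genes of each library, added after the data were seen, gave 3 in YD against SD and 3 in RD against YD. With a library left out the sum was between 0 and 2 in HF or CR against SD and in HF against CR, between 7 and 14 in YD and between 1 and 6 in RD against SD, and between 2 and 9 in RD against YD. The share of all coding genes moved as well, for losses in YD to 13.5% without SD_1 and 20.9% without SD_3. Not all of these shares are given here, so the ranges cannot be read against them. Acacb was not counted in HF without HF_1 or HF_3. The cause of these differences was not tested, beyond the fact that fewer islands or mice enter.

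The number of genes marked per library had a mean of 34 in SD, 16.7 in YD and 25.7 in RD with a TSS inside the island, and of 34.3 in SD, 32.3 in HF and 24.3 in RD with those 7825 islands per list. Among the 3811 top coding genes it was 20.7 in SD, 22 in CR, 18 in HF and 20.7 in RD. The median width of the genes marked in all lists was 3200 bp in SD and 4733 bp in HF with islands of a gene summed, and 2533 bp in SD with a TSS inside the island. YD kept the lowest mean of genes marked in all these settings except the top coding genes, where HF had 18 and YD 18.3. With a library left out, the mean number of genes marked ran from 39 to 41.5 in SD and from 36 to 43 in CR. It ran from 42.5 to 45 in HF, 21 to 27 in YD and 31.5 to 37 in RD. The mean of the median widths ran from 2900 to 3000 bp in SD, 3200 to 3700 in CR and 3600 to 3800 in HF. For YD and RD it was 1600 to 2400 and 2300 to 2600 bp. The lists give no depth per island, so a weak mark below the calling threshold cannot be told from no mark.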
